A study of Mus musculus with 27 samples.

Results

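The prostaglandin and leukotriene pathway was followed in mouse macrophages through 10 of its genes: Pla2g4a, Ptgs1, Ptgs2, Ptges, Hpgds, Alox5, Alox5ap, Ptger2, Ptger4 and Ptgir. They were taken by symbol from a table of 45070 genes, and all 10 of 10 were found. All 10 also passed the filter for testing (3 or more of the 27 samples with 10 or more normalised read counts, met by 13901 genes), although Ptgs2 and Ptges did so through LPS samples alone and Ptgir through stimulated samples.

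The study tested what clinical kinase inhibitors do to the response of macrophages to LPS and IL-4, and the present time courses, made without an inhibitor, served to find the kinases that either stimulus regulates. Chromatin-associated RNA, which is rich in transcripts still being made, was sequenced from bone marrow-derived macrophages (BMDMs) of wild-type male C57/BL6 mice. All 9 groups, the untreated one included, had 1 h with DMSO, and 8 of them then had LPS (lipopolysaccharide, a bacterial product that TLR4 senses) or IL-4 (a type 2 cytokine), each at 10 ng/ml, for 0.5, 1, 2 or 4 h. There were 3 replicates in each group and 27 samples in all. The labels do not say whether replicates came from separate cultures or animals, so the p-values measure only the spread between these samples, which may be technical. In such bulk samples, fewer cells making a transcript and less of it per cell cannot be told apart.

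Prostanoids and leukotrienes are made from arachidonic acid, which cytosolic phospholipase A2 frees from membranes. Cyclooxygenases turn it into prostaglandin H2, from which terminal synthases make prostaglandin E2, D2, I2 or thromboxane, while 5-lipoxygenase and its activating protein start the leukotriene branch. Macrophages are a major source of both classes, which act on G protein-coupled receptors of the same and of neighbouring cells, and COX-2, the product of Ptgs2, is the target of many anti-inflammatory drugs.

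The stretch upstream of the start is shown for 3 genes on which the results turn: Ptgs2 and Ptges, whose values were the most changed by LPS, and Ptgs1, which moved in opposite directions under the 2 stimuli. Each is the 250 bases before the annotated start, read 5′ to 3′ on the gene's strand, from RefSeq (GRCm38.p6, the build of the deposited table): chr1:150099781-150100030 on the + strand for Ptgs2, chr2:30903298-30903547 on the − strand for Ptges and chr2:36230176-36230425 on the + strand for Ptgs1. Capitals mark matches to the searched motifs.
Ptgs2: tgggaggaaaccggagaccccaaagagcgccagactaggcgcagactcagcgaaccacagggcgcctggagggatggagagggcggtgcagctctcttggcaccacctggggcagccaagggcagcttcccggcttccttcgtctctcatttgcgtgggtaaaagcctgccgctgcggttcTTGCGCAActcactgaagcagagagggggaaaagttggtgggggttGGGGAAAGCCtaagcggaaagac
Ptges: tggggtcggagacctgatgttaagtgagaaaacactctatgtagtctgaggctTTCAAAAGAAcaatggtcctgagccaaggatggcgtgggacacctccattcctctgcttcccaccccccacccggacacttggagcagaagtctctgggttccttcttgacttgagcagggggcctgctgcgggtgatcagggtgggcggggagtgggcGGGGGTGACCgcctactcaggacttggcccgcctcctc
Ptgs1: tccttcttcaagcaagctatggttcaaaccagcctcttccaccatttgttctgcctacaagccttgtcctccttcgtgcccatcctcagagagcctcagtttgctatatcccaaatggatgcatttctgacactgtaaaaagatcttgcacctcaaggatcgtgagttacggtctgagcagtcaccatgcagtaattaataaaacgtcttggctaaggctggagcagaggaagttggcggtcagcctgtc

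These windows, found for 9 of the 10 genes (all but Alox5ap), were searched for 7 motifs on both strands. The κB motif was written as GGGANNNNCC or GGGGNNNNCC and stands in 28.4% of the 32851 windows of all genes. It matched at position −23 of Ptgs2 and −38 of Ptges, counted from the annotated start, and at −53 of Alox5. The C/EBP motif TTGCNNAA, present in 9.56% of all windows, matched at −69 of Ptgs2 and −176 of Hpgds, and the STAT6 motif TTCNNNNGAA, present in 5.85%, at −197 of Ptges. Pla2g4a, Ptgs1, Ptgir, Ptger2 and Ptger4 held no match in the window, and none of the 9 windows matched the CRE core TGACG (17.8% of all windows), the AP-1 motif TGANTCA (6.75%), the E-box CACGTG (6.02%) or the TATA motif TATAAA (12.4%). A second annotated start of Pla2g4a, 38851 bases further into the gene, is not among the 9. Its window matched only the TATA motif, at −200. A match describes these letters and is not a binding site shown by data, and no match says only that the letters are not in these 250 bases. For the remaining pair, the matches with the 10 bases on either side read as follows.
Alox5, κB, −63 to −34: gtggggtcctGGGACTGGCCagagacaggg
Hpgds, C/EBP, −186 to −159: actttactctTTATGCAAatacgttgga

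The windows also differed in composition. The share of G and C was 66.8% for Ptger4, with 19 CpG dinucleotides, and 61.6% for Ptgs2, with 13, against medians of 52.4% and 6 over all windows. It was lowest for Ptger2, at 38.0% with 3 CpG.

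Values are normalised read counts, which the authors scaled on invariant genes. Summed over genes they reached 2469768 to 2790981 in untreated and IL-4 samples and 3571492 to 4058199 in the LPS samples, and since they were scaled these sums are not sequencing depths. The summed level of 9 macrophage markers was 9616 to 10699 in untreated samples, 9819 to 17930 after LPS and 10625 to 13845 after IL-4, and all 9 markers were present in untreated cells. Relative to untreated cells, the median tested gene was lower by between −0.24 and −0.30 (log2) after LPS and lay between −0.02 and 0.02 after IL-4. This LPS shift became −0.00 to −0.05 with median-of-ratios scaling and −0.73 to −0.91 with equal totals. Replicate 1 stood apart in every group: the log2 ratios of replicate 1 to replicate 2 or 3 had an SD of 0.47 to 0.60 over 6827 genes, against 0.21 to 0.31 between replicates 2 and 3.

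**Figure D1:**
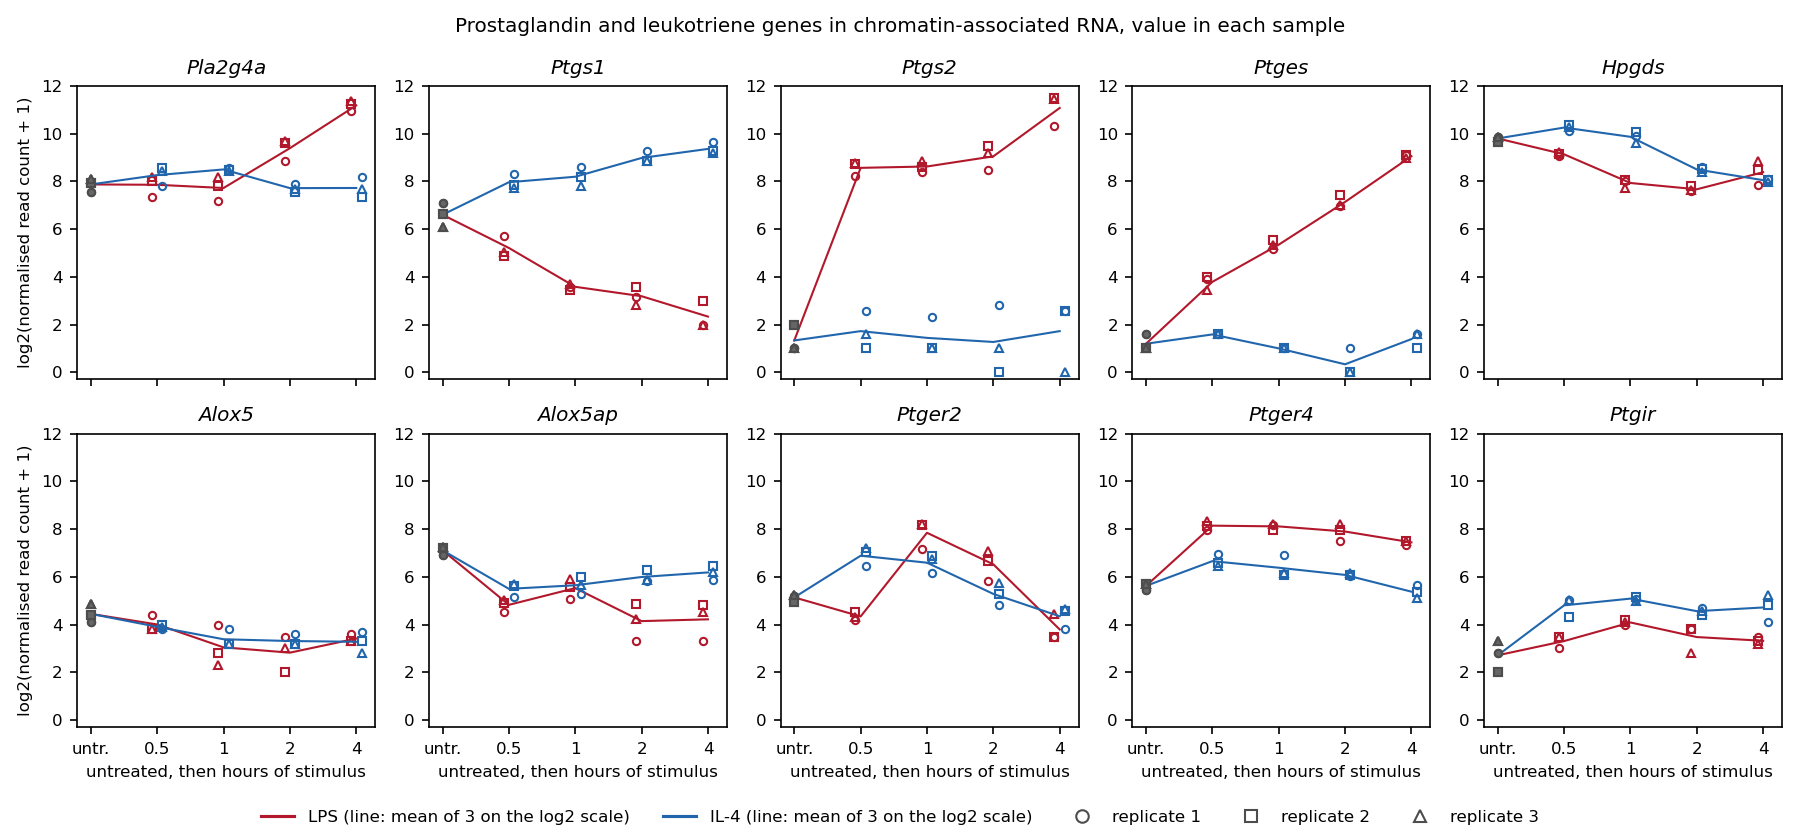
Value of each of the 10 genes in each of the 27 samples, as log2(normalised read count + 1), in untreated cells and after 0.5, 1, 2 and 4 h of LPS (red) or IL-4 (blue); symbols are replicates and lines join the means of 3. Ptgs2 and Ptges lay at 0 to 6 normalised read counts in all untreated and IL-4 samples and at 10 to 2865 in all LPS samples, whereas Ptgs1 rose to 580 to 795 after 4 h of IL-4 and fell to 3 to 7 after 4 h of LPS.

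Over the LPS course all 10 genes changed in the moderated F test of limma (adjusted p from 1.03e-12 for Ptges to 0.0314 for Ptgir), a call made for 87.6% of all tested genes. The share is so high that the count says little about these genes, and their sizes are given as well: the median of each gene's change of largest size was 2.84 (log2) over the 10 genes and 1.73 over all tested genes. Ptgs2 and Ptges passed the filter through LPS samples alone and Ptgir through stimulated samples, and the genes were chosen with earlier results of these data known. The medians and counts of both courses, those at each time included, therefore describe the chosen genes and are not a test of them. In the IL-4 course 9 of the 10 genes passed, all but Ptgs2, against 40.3% of all tested genes, with a median largest change of 1.39 against 0.57. One of the 9 is Ptges, which lay at 0 to 2 normalised read counts in all samples of this fit and did not pass with a pseudocount of 8 (adjusted p = 0.0934), so its call is not read as a change. The IL-4 count fell to 5 without replicate 2 and to 5 without replicate 3, when Pla2g4a, Ptges, Alox5 and Ptger4 no longer passed. These fits have fewer samples a group, and the share of all tested genes they call is not given. The fall is thus not read as particular to these genes. With all 27 samples in the fit Pla2g4a (0.0755) and Alox5 (0.0629) left the IL-4 calls too. Pla2g4a also left them with equal totals (0.0666) or no filter (0.113). Leaving out replicate 2 or 3 took Alox5 out of the LPS calls (adjusted p = 0.189 and 0.17), as did averaging replicates 2 and 3 (0.16). Ptgir left them without replicate 1 (0.0891) or 2 (0.32) and with replicates 2 and 3 averaged (0.0659). It also left them with equal totals (0.185) and with no filter (0.0559). Both courses are set against the same 3 untreated samples, so their values are given side by side and not correlated.

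By time after LPS, the genes higher than in untreated cells were Ptger4, Ptges and Ptgs2 at 0.5 h (3 of 10, against 19.6% of tested genes). Ptger2 and Ptgir joined them at 1 h (5 of 10, against 24.8%). At 2 h Pla2g4a was among them and Ptgir no longer (5 of 10, against 26.9%), and at 4 h Pla2g4a, Ptger4, Ptges and Ptgs2 were higher (4 of 10, against 25.9%). Those lower than in untreated cells were Alox5ap, Hpgds and Ptgs1 at 0.5 h (3 of 10, against 34.4%). Alox5 was also lower at 1 and 2 h (4 of 10 at each, against 39.0% and 39.0%) and both Alox5 and Ptger2 at 4 h (5 of 10, against 37.6%).

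After IL-4, Hpgds, Ptger2, Ptger4, Ptgir and Ptgs1 were higher at 0.5 h (5 of 10, against 8.15% of tested genes). Without Hpgds the same genes were higher at 1 h (4 of 10, against 11.1%), and Ptgir and Ptgs1 at 2 h and 4 h (2 of 10 at each, against 14.3% and 13.4%). Alox5ap was lower at 0.5 h (1 of 10, against 8.14%), with Alox5 at 1 h (2 of 10, against 9.83%). Alox5, Alox5ap, Hpgds and, at 0 or 1 normalised read count, Ptges were called lower at 2 h (4 of 10, against 13.2%), and all of these but Ptges at 4 h (3 of 10, against 12.5%).

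**Figure D2:**
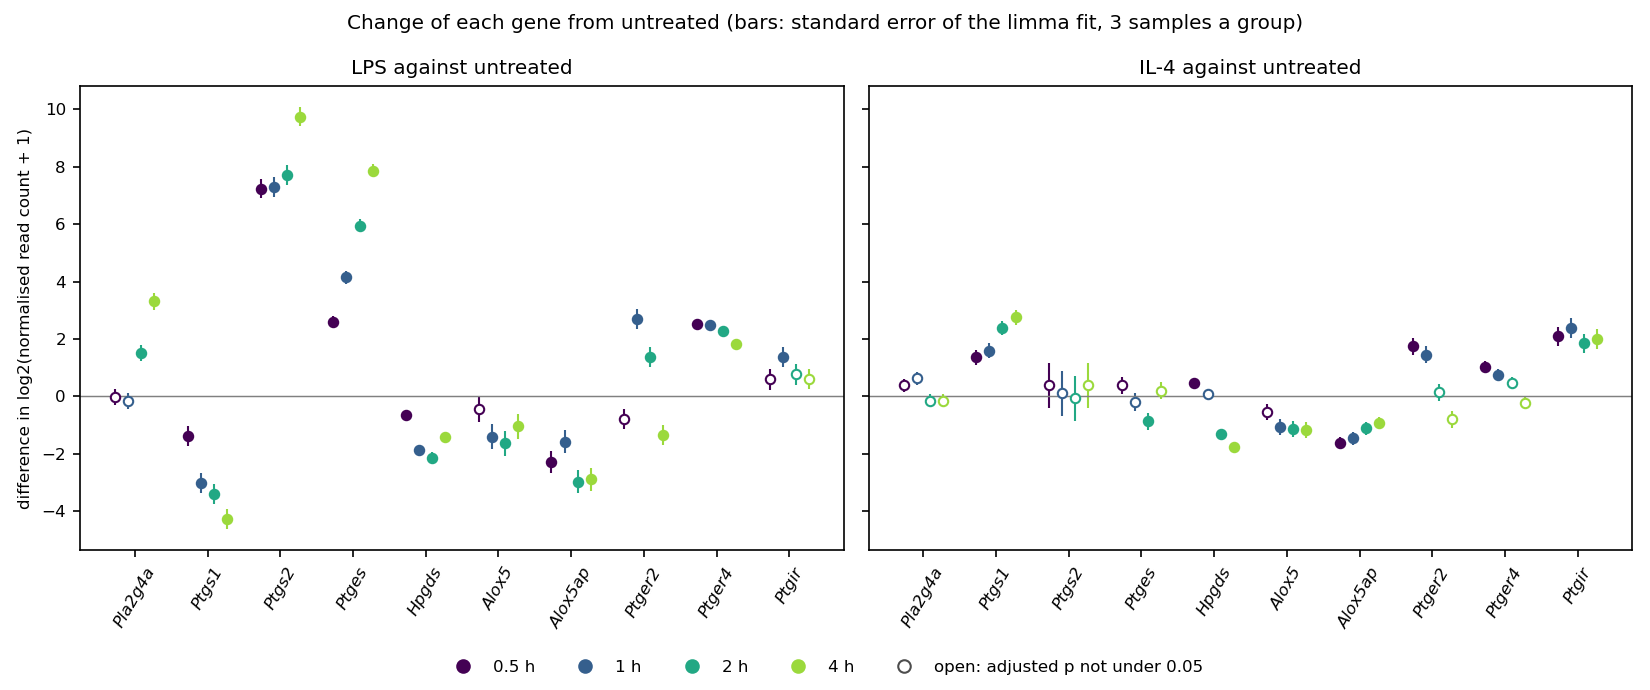
Difference of each gene from untreated in log2(normalised read count + 1) over the 4 times of LPS (left) and IL-4 (right), coloured by time; bars are the standard error of the limma fit with 3 samples a group, and open points did not pass an adjusted p of 0.05. After LPS the changes at 4 h run from −4.27 for Ptgs1 to 9.75 for Ptgs2, and after IL-4 from −1.75 for Hpgds to 2.76 for Ptgs1.

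Pla2g4a, which encodes the cytosolic phospholipase A2 that frees arachidonic acid, rose late after LPS and showed a brief, small rise under IL-4 that did not pass the test. It is a protein-coding gene on the − strand (chr1:149829618-149961290), and 138740 bases lie between its start and that of Ptgs2. In replicates 1, 2 and 3 it had 186, 247 and 277 normalised read counts in untreated cells, 162, 260 and 293 at 0.5 h of LPS and 142, 225 and 291 at 1 h. The count was 460, 786 and 836 at 2 h and 1966, 2443 and 2629 at 4 h. The first LPS groups overlapped with untreated, while all samples at 2 h and again at 4 h lay above all earlier ones. On the log2(value + 1) scale used for all differences, the change was −0.01 ± 0.28 (SE, n = 3) at 0.5 h (adjusted p = 0.973, limma) and −0.15 at 1 h (0.662). The latter was 0.12 with median-of-ratios scaling and −0.73 with equal totals, where it passed (0.0346). It was 1.52 ± 0.28 at 2 h (adjusted p = 0.00023) and 3.31 ± 0.28 at 4 h (5.88e-08), or 9.94-fold. The steps from 1 to 2 h (1.67, adjusted p = 0.00018) and from 2 to 4 h (1.79, 0.000307) also passed.

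Under IL-4, Pla2g4a had 223, 374 and 345 normalised read counts at 0.5 h and 378, 359 and 348 at 1 h, then 238, 187 and 207 (2 h) and 287, 160 and 203 (4 h). Only the samples at 1 h were all above untreated. That difference was 0.63 ± 0.22 (95% interval 0.15 to 1.11, adjusted p = 0.0613), and it passed in the fit blocked on replicate number (0.0419). The step down from 1 to 2 h was −0.78 (adjusted p = 0.0414), a call lost without replicate 2 (0.318) or 3 (0.344). Without replicate 1 all 4 IL-4 differences passed. They were above untreated at 0.5 h (0.46, adjusted p = 0.0196) and 1 h (0.43, 0.0195), and below it at 2 h (−0.41, 0.0214) and 4 h (−0.53, 0.00557).

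The cyclooxygenase genes moved apart. Ptgs2 (chr1:150100031-150108234, + strand), the inducible COX-2 gene, was close to absent in untreated cells and present in every LPS sample from 0.5 h on. In replicates 1, 2 and 3 it had 1, 3 and 1 normalised read counts in untreated cells, 298, 422 and 432 at 0.5 h of LPS and 334, 392 and 467 at 1 h. It had 354, 708 and 592 at 2 h and 1273, 2865 and 2772 at 4 h. Every LPS sample was above every untreated one, the groups at 0.5, 1 and 2 h overlapped, and the 4 h group stood clear of them, with replicate 1 the lowest of its group at 4 h, 2 h, 1 h and 0.5 h.

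Since no untreated library exceeded 3 normalised read counts, folds of Ptgs2 are given against that value as a floor. After 0.5 h of LPS its mean was higher at least 128-fold (adjusted p = 1.44e-10), at least 133-fold at 1 h (8.4e-11), at least 184-fold at 2 h (2.47e-11) and at least 768-fold at 4 h (1.96e-12). The fitted step from 2 to 4 h was 2.03 ± 0.34 (adjusted p = 0.000467). Under IL-4 Ptgs2 stayed at 0 to 6 normalised read counts in all 12 samples, its F test gave an adjusted p of 0.973, and the differences had wide intervals (−1.30 to 2.08 at 4 h).

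A non-coding gene annotated next to Ptgs2 on the other strand, Ptgs2os (chr1:150074873-150099874), does not overlap it. It was chosen after its values were seen: 0, 0 and 0 normalised read counts in untreated cells, 3, 2 and 4 at 0.5 h of LPS, and 22, 13 and 23 at 4 h. All 12 IL-4 samples were at 0 or 1.

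Ptgs1 (chr2:36230426-36252272, + strand), which encodes COX-1, the form most cells make at rest, fell with time after LPS and rose with time after IL-4. It had 134, 99 and 67 normalised read counts in untreated cells, 52, 28 and 32 at 0.5 h of LPS and 11, 10 and 12 at 1 h, then 8, 11 and 6 (2 h) and 3, 7 and 3 (4 h). Under IL-4 it had 320, 232 and 208 at 0.5 h and 384, 290 and 224 at 1 h, then 617, 456 and 458 (2 h) and 795, 616 and 580 (4 h). No LPS sample overlapped with untreated and no IL-4 sample did, on opposite sides.

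The LPS change of Ptgs1 was −1.39 ± 0.35 at 0.5 h (adjusted p = 0.00355), −3.02 at 1 h (2.4e-06), −3.42 at 2 h (4.73e-07) and −4.27 at 4 h (3.58e-08), the last a 19.3-fold fall on this scale. The IL-4 change was 1.36 ± 0.26 at 0.5 h (adjusted p = 0.00198), 1.59 at 1 h (0.000431), 2.38 at 2 h (1.02e-05) and 2.76 at 4 h (3.19e-06), or 6.77-fold. The LPS step from 0.5 to 1 h passed (−1.63, adjusted p = 0.00127). The IL-4 steps from 1 to 2 h (0.79, adjusted p = 0.0739) and from 2 to 4 h (0.38, 0.496) did not pass but did with the replicate block (9.01e-05 and 0.0237). Without replicate 2 the IL-4 change at 0.5 h missed the threshold (adjusted p = 0.0938).

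Markers of platelets and their precursors, cells rich in COX-1, were near 0: the summed level of 4 such genes was 1 to 3 normalised read counts in untreated samples, 1 to 12 after LPS and 0 to 7 after IL-4.

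Because the 2 genes differ in length, their levels were compared per kb of gene. Ptgs2 made up 4.41% ± 2.81 (SD, n = 3) of the summed level of both in untreated cells, 96.2% ± 2.07 at 0.5 h of LPS and 99.9% ± 0.029 at 4 h. After IL-4 its share was 2.54% ± 1.43 at 0.5 h and 1.25% ± 1.11 at 4 h. Per kb of exon the share was lower, at 1.11% ± 0.73 in untreated cells and 86.3% ± 6.66 at 0.5 h of LPS, and reached 99.7% ± 0.118 at 4 h. With either length all LPS samples were above all others. Whether introns were counted is not given in the sources used here. The level of Ptgs1 per kb of gene was 4.58 in untreated cells, 0.198 at 4 h of LPS and 30.4 at 4 h of IL-4, and that of Ptgs2 was 0.203, 281 and 0.406 in the same groups.

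**Figure D3:**
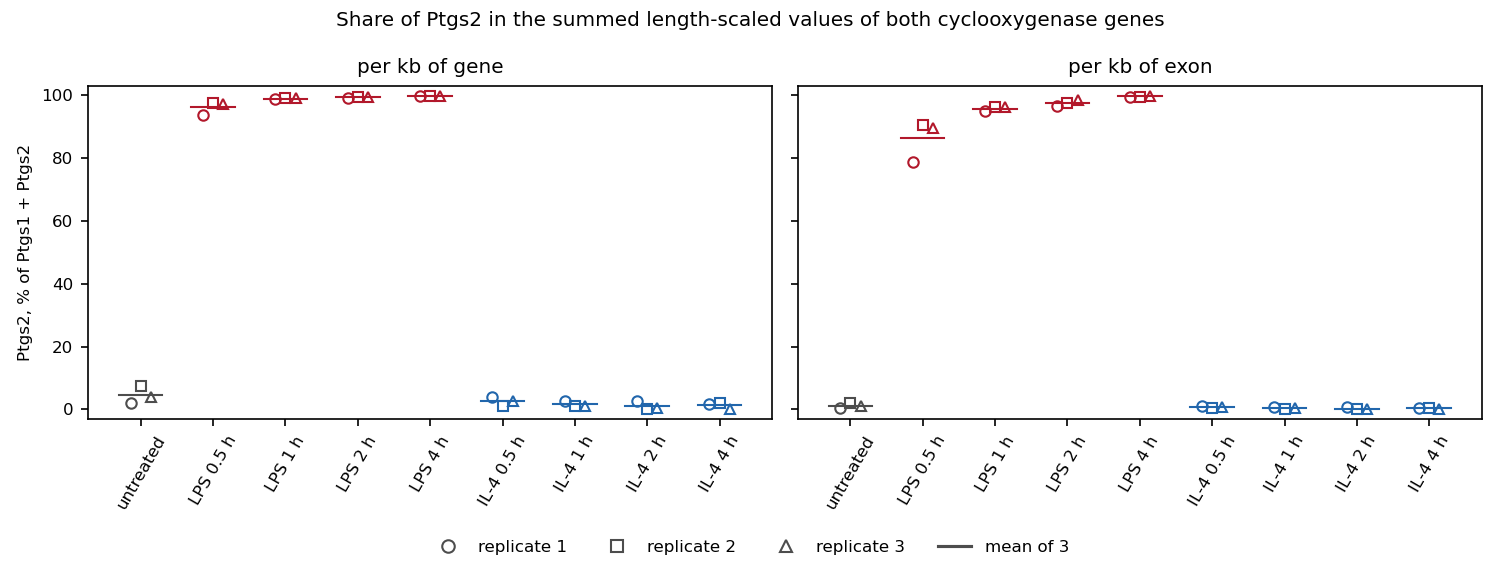
Ptgs2 as a percentage of Ptgs1 plus Ptgs2 in each sample, with values divided by gene length (left) or exon length (right); symbols are replicates and bars the mean of 3. The share is at most 7.47% per kb of gene in any untreated or IL-4 sample and at least 93.9% in any LPS sample.

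Among the terminal synthases, Ptges rose at every LPS time while Hpgds fell under both stimuli. Ptges (chr2:30889471-30903297, − strand) encodes the inducible microsomal prostaglandin E synthase, which acts with COX-2. It had 2, 1 and 1 normalised read counts in untreated cells, 14, 15 and 10 at 0.5 h of LPS and 35, 46 and 39 at 1 h, then 124, 173 and 128 (2 h) and 543, 548 and 505 (4 h). Each LPS group lay wholly above the one before it, and the steps were 1.56 (adjusted p = 3.61e-05), 1.79 (8.38e-06) and 1.92 (1.79e-05) with an SE of 0.22.

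Against the floor of 3, Ptges was at least 4.33-fold higher at 0.5 h of LPS (adjusted p = 1.63e-07), at least 13.3-fold at 1 h (4.62e-10), at least 47.2-fold at 2 h (4.96e-12) and at least 177-fold at 4 h (2.68e-13). All 12 IL-4 samples had 0 to 2 normalised read counts, at or under the floor like the untreated ones, so no fold is given. The call of a fall at 2 h of IL-4 (1, 0 and 0 against 2, 1 and 1; adjusted p = 0.0462) overlapped with untreated and did not pass without replicate 2 (0.219) or 3 (0.283), with a pseudocount of 8 (0.151), with no filter (0.0727) or with a mean of at least 50 (0.058). Ptges shares 43 bases with a non-coding gene, Gm52550.

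Hpgds (chr6:65117293-65144730, − strand), the hematopoietic prostaglandin D synthase, had 931, 813 and 935 normalised read counts in untreated cells. After LPS it had 532, 561 and 593 at 0.5 h and 260, 263 and 211 at 1 h, then 190, 220 and 199 (2 h) and 227, 357 and 458 (4 h). All LPS samples were below untreated, and at 4 h all were above those at 2 h. The change was −0.67 ± 0.19 at 0.5 h (adjusted p = 0.00781), −1.87 at 1 h (5.6e-07), −2.13 at 2 h (8.86e-08) and −1.41 at 4 h (8.83e-06), with a partial return from 2 to 4 h of 0.72 (0.0124, and 0.157 without replicate 2 or 0.226 without replicate 3). Relative to the median gene, the fall at 0.5 h was −0.42, and it missed the threshold with median-of-ratios scaling (adjusted p = 0.0674) and without replicate 2 (0.0713).

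Under IL-4, Hpgds had 1108, 1327 and 1244 normalised read counts at 0.5 h and 963, 1070 and 792 at 1 h, then 385, 368 and 333 (2 h) and 271, 269 and 254 (4 h). The samples at 0.5 h were above all untreated ones, and those at 2 and 4 h were below them all. The change was 0.46 ± 0.11 at 0.5 h (adjusted p = 0.00972), 0.07 at 1 h (0.732), −1.30 at 2 h (8.9e-07) and −1.75 at 4 h (8.15e-08), the last a 3.36-fold fall. The early rise missed the threshold without replicate 2 (adjusted p = 0.222) or 3 (0.0626) and with all 27 samples in the fit (0.0796), whereas the falls at 2 and 4 h passed in every fit tried. The steps from 0.5 to 1 h (−0.39, adjusted p = 0.0441), 1 to 2 h (−1.37, 6.87e-06) and 2 to 4 h (−0.45, 0.0296) were all down. The early step missed the threshold without replicate 2 (0.252) or 3 (0.439), and the late step without any of the replicates (0.0732 without replicate 1, 0.242 without 2 and 0.203 without 3).

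Mast cells, which also make prostaglandin D2, left little trace: the summed level of 7 mast cell and basophil markers was 1 to 3 normalised read counts in untreated samples, 0 to 11 after LPS and 0 to 5 after IL-4.

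Of the genes of leukotriene synthesis, Alox5ap was lower after either stimulus. For Alox5 the lower values gave calls that were lost in fits leaving out a replicate, as given below. Alox5ap (chr5:149265004-149288153, + strand) encodes the membrane protein that hands arachidonic acid to 5-lipoxygenase. It had 118, 145 and 151 normalised read counts in untreated cells, 22, 29 and 32 at 0.5 h of LPS and 33, 47 and 59 at 1 h, then 9, 28 and 18 (2 h) and 9, 27 and 22 (4 h). Under IL-4 it had 35, 48 and 51 at 0.5 h and 38, 62 and 50 at 1 h, then 56, 77 and 57 (2 h) and 58, 87 and 73 (4 h). All 24 stimulated samples lay below the lowest untreated one.

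The LPS change of Alox5ap was −2.29 ± 0.40 at 0.5 h (adjusted p = 0.000185), −1.58 at 1 h (0.00267), −2.97 at 2 h (8.45e-06) and −2.89 at 4 h (1.12e-05). The fall from 1 to 2 h passed (−1.38, adjusted p = 0.00995), though not without replicate 3 (0.141). The rise from 0.5 to 1 h (0.70, 0.156) and the difference of 4 h from 0.5 h (−0.61, 0.195) did not pass but did with the replicate block (0.0236 and 0.0396). The IL-4 change was deepest at 0.5 h, at −1.62 ± 0.21 (adjusted p = 0.000115), and was −1.47 at 1 h (0.000189), −1.12 at 2 h (0.00132) and −0.93 at 4 h (0.00547). Without replicate 3 the IL-4 calls at 2 h (adjusted p = 0.0847) and 4 h (0.13) were lost, the latter also with all 27 samples in the fit (0.0602).

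Alox5 (chr6:116410071-116461178, − strand), the 5-lipoxygenase gene, was low throughout. It had 16, 20 and 28 normalised read counts in untreated cells, 20, 13 and 13 at 0.5 h of LPS and 15, 6 and 4 at 1 h, then 10, 3 and 7 (2 h) and 11, 9 and 9 (4 h). Under IL-4 it had 13, 15 and 14 at 0.5 h and 13, 8 and 8 at 1 h, then 11, 8 and 8 (2 h) and 12, 9 and 6 (4 h). All IL-4 samples, and all LPS samples from 1 h on, were below the lowest untreated one, by as little as 1 normalised read count.

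Alox5 changed by −1.40 ± 0.44 at 1 h of LPS (adjusted p = 0.0109), −1.63 at 2 h (0.00413) and −1.04 at 4 h (0.0492), and by −1.06 ± 0.28 at 1 h of IL-4 (0.0144), −1.14 at 2 h (0.00768) and −1.17 at 4 h (0.00706). None of these 6 calls held without replicate 2 (adjusted p from 0.0807 to 0.229) or without replicate 3 (0.0512 to 0.288), and the LPS call at 4 h, which was −0.78 relative to the median gene, was also lost with median-of-ratios scaling (0.136) and the IL-4 call at 1 h with all 27 samples in the fit (0.0588). A non-coding gene on the other strand, Gm38880, covers 68.6% of Alox5. It had 9, 15 and 22 normalised read counts in untreated cells, 9, 6 and 8 at 4 h of LPS and 12, 7 and 4 at 4 h of IL-4, and since the counting is not stated to use strand, reads of the 2 genes cannot be told apart.

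Of the receptors, Ptger4 rose early and stayed up after LPS, Ptger2 rose and fell again within the course, and Ptgir rose mainly under IL-4. Ptger4 (chr15:5233399-5244187, − strand) encodes EP4, a prostaglandin E2 receptor that raises cyclic AMP. It had 43, 51 and 51 normalised read counts in untreated cells, 249, 277 and 325 at 0.5 h of LPS and 287, 247 and 296 at 1 h, then 180, 250 and 298 (2 h) and 161, 178 and 181 (4 h). Under IL-4 it had 122, 95 and 86 at 0.5 h and 119, 66 and 71 at 1 h, then 64, 66 and 70 (2 h) and 49, 40 and 34 (4 h). All LPS samples were above all untreated and IL-4 samples, and the IL-4 samples were above untreated up to 2 h.

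The LPS change of Ptger4 was 2.52 ± 0.17 at 0.5 h (adjusted p = 9.06e-09), or 5.75-fold, then 2.49 at 1 h (6.37e-09), 2.28 at 2 h (1.11e-08) and 1.82 at 4 h (1.51e-07). The decline from 2 to 4 h (−0.45, adjusted p = 0.0671) passed with the replicate block (0.0144). The IL-4 change was 1.04 ± 0.21 at 0.5 h (adjusted p = 0.00334), 0.76 at 1 h (0.0183), 0.46 at 2 h (0.126) and −0.24 at 4 h (0.455). Its decline from 2 to 4 h (−0.70, adjusted p = 0.0709) passed with the block (0.0219). Without replicate 2 the calls at 0.5 h (0.0832) and 1 h (0.098) were lost and without replicate 3 that at 1 h (0.0949), while without replicate 1 the differences at 2 h (0.0414) and 4 h (0.0262) passed.

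Ptger2 (chr14:44988111-45003820, + strand) encodes EP2, which also binds prostaglandin E2 and raises cyclic AMP. It had 36, 30 and 37 normalised read counts in untreated cells, 17, 22 and 19 at 0.5 h of LPS and 141, 285 and 299 at 1 h, then 56, 100 and 134 (2 h) and 10, 10 and 21 (4 h). Under IL-4 it had 86, 129 and 145 at 0.5 h and 70, 117 and 106 at 1 h, then 27, 38 and 53 (2 h) and 13, 23 and 24 (4 h). The LPS samples were thus all below untreated at 0.5 h, all above at 1 and 2 h, and all below at 4 h, and the IL-4 samples were all above at 0.5 and 1 h and all below at 4 h.

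For Ptger2 the LPS change was −0.80 ± 0.35 at 0.5 h (adjusted p = 0.0669, and 0.0131 with the replicate block), 2.71 at 1 h (7.39e-06), or 6.54-fold, 1.39 at 2 h (0.00273) and −1.34 at 4 h (0.0035). Each LPS step passed, at 3.51 (adjusted p = 1.03e-06), −1.32 (0.006) and −2.73 (4.46e-05). The IL-4 change was 1.75 ± 0.29 at 0.5 h (adjusted p = 0.00087), 1.45 at 1 h (0.0026), 0.15 at 2 h (0.775) and −0.79 at 4 h (0.0644, and 0.00401 with the block). The IL-4 step down from 1 to 2 h was −1.31 (adjusted p = 0.0124), and that from 2 to 4 h was −0.94 (0.089, and 0.00435 with the block). Without replicate 2 the calls at 2 h (0.0643) and 4 h (0.0596) of LPS and at 0.5 h (0.0849) and 1 h (0.142) of IL-4 were lost, as were the steps from 1 to 2 h of LPS (0.0984) and of IL-4 (0.293). Without replicate 3 the call at 1 h of IL-4 (0.0508) and the IL-4 step from 1 to 2 h (0.118) were lost. With equal totals the LPS call at 2 h was lost (0.0723) and the difference at 0.5 h passed (0.00497).

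Ptgir (chr7:16906490-16910905, + strand) encodes the receptor of prostacyclin, prostaglandin I2. It had 6, 3 and 9 normalised read counts in untreated cells, 7, 10 and 10 at 0.5 h of LPS and 15, 17 and 16 at 1 h, then 13, 13 and 6 (2 h) and 10, 9 and 8 (4 h). Under IL-4 it had 32, 19 and 32 at 0.5 h and 33, 35 and 31 at 1 h, then 25, 20 and 23 (2 h) and 16, 27 and 37 (4 h). The IL-4 samples were all above untreated at each time, whereas after LPS only those at 1 h were.

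The IL-4 change of Ptgir was 2.09 ± 0.34 at 0.5 h (adjusted p = 0.000698), 2.38 at 1 h (0.000175), or 5.19-fold, 1.85 at 2 h (0.00107) and 2.00 at 4 h (0.000642). After LPS the change at 1 h was 1.38 ± 0.36 (adjusted p = 0.00364), which was lost without replicate 2 (0.0942), and the differences at 0.5 h (0.60, 0.177), 2 h (0.76, 0.0736) and 4 h (0.61, 0.154) did not pass. That at 2 h did pass without replicate 3 (0.0189) and with median-of-ratios scaling (0.0272).

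Counted over the genes, 4 of 10 changed from 0.5 to 1 h of LPS (against 49.7% of tested genes), 4 from 1 to 2 h (43.3%) and 5 from 2 to 4 h (22.9%), the last being Hpgds, Pla2g4a, Ptger2, Ptges and Ptgs2. Over the IL-4 steps the counts were 1 (7.82%), 3 (9.40%) and 1 (5.48%), and Hpgds was called at each. Ranking the 9 groups of each gene by their mean gives 8 neighbouring pairs, of which 4 were without overlap for Ptgs1 and Ptges, 3 for Hpgds and 2 for each of the others except Alox5, in which all 8 overlapped. The ranking uses the same values as the overlap, and no share over all tested genes is given. These counts describe the order and do not show that any gene is unusual. The separated pairs of Ptgs1 were 2 h over 1 h of IL-4, 0.5 h of IL-4 over untreated, untreated over 0.5 h of LPS, and 0.5 h over 1 h of LPS.

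LPS and IL-4 were also compared with each other at each time in a fit of all 27 samples. Of the 10 genes, 7 differed at 0.5 h (against 53.8% of tested genes), 8 at 1 h (64.5%), 9 at 2 h (68.6%) and 7 at 4 h (68.0%). Ptgs1 was lower after LPS by a difference of −2.76 ± 0.29 at 0.5 h (adjusted p = 3.05e-08), −4.61 at 1 h (2.37e-12), −5.80 at 2 h (1.92e-14) and −7.03 at 4 h (4.71e-16). Ptges was higher after LPS at least 4.33-fold at 0.5 h (adjusted p = 3.18e-07) and at least 177-fold at 4 h (2.57e-17). For Ptgs2 the fitted difference was 6.85 ± 0.63 at 0.5 h (adjusted p = 3.25e-09) and 9.36 at 4 h (4.08e-12), a size that rests on IL-4 values of 0 to 6 and on the added count of 1.

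The difference of Pla2g4a at 0.5 h (−0.41, adjusted p = 0.221) passed without replicate 1 (0.0117) and with equal totals (0.0165). Pla2g4a was lower after LPS than after IL-4 at 1 h (−0.78 ± 0.27, adjusted p = 0.0152), a call lost without replicate 2 (0.0885) or with median-of-ratios scaling (0.0943), and higher at 2 h (1.67, 8.47e-06) and 4 h (3.46, 6.21e-11). Ptger4 was higher after LPS at all 4 times, from 1.49 ± 0.20 (adjusted p = 9.46e-07) at 0.5 h to 2.07 (2.2e-09) at 4 h. Ptgir was lower after LPS at all 4 times, from −1.50 ± 0.33 at 0.5 h (adjusted p = 0.000448) to −1.0 at 1 h (0.0101), −1.09 at 2 h (0.00524) and −1.40 at 4 h (0.000607). The call at 1 h was lost without replicate 2 (0.0532) or with median-of-ratios scaling (0.0572), and that at 2 h without replicate 3 (0.11).

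Ptger2 was lower after LPS at 0.5 h (−2.55 ± 0.35, adjusted p = 1.39e-06) and higher at 1 h (1.25, 0.00302) and 2 h (1.24, 0.00307). Without replicate 2 the calls at 1 h (0.0557) and 2 h (0.0642) were lost, and with equal totals likewise (0.0505 and 0.11). At 4 h the difference of −0.55 (0.164) passed with the replicate block (0.0254), without replicate 1 (0.0223) and with equal totals (0.00526). Hpgds was lower after LPS at 0.5 h (−1.12 ± 0.16, adjusted p = 3.79e-06), 1 h (−1.94, 4.42e-10) and 2 h (−0.83, 0.000104). Its difference at 4 h was 0.33 (95% interval −0.01 to 0.67, adjusted p = 0.0774), and it passed without replicate 1 (0.000292) and with median-of-ratios scaling (0.00116).

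Alox5ap differed at 2 h (−1.85 ± 0.35, adjusted p = 5.07e-05) and 4 h (−1.97, 2.38e-05), lower after LPS. Its difference at 0.5 h (−0.67, 0.108) passed with the replicate block (0.0096), without replicate 1 (0.011) and with equal totals (0.0113). Alox5 differed at no time in this fit (adjusted p from 0.26 to 0.857), with a 95% interval at 4 h of −0.65 to 0.92. Its difference at 2 h passed with equal totals (0.014).

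**Figure D4:**
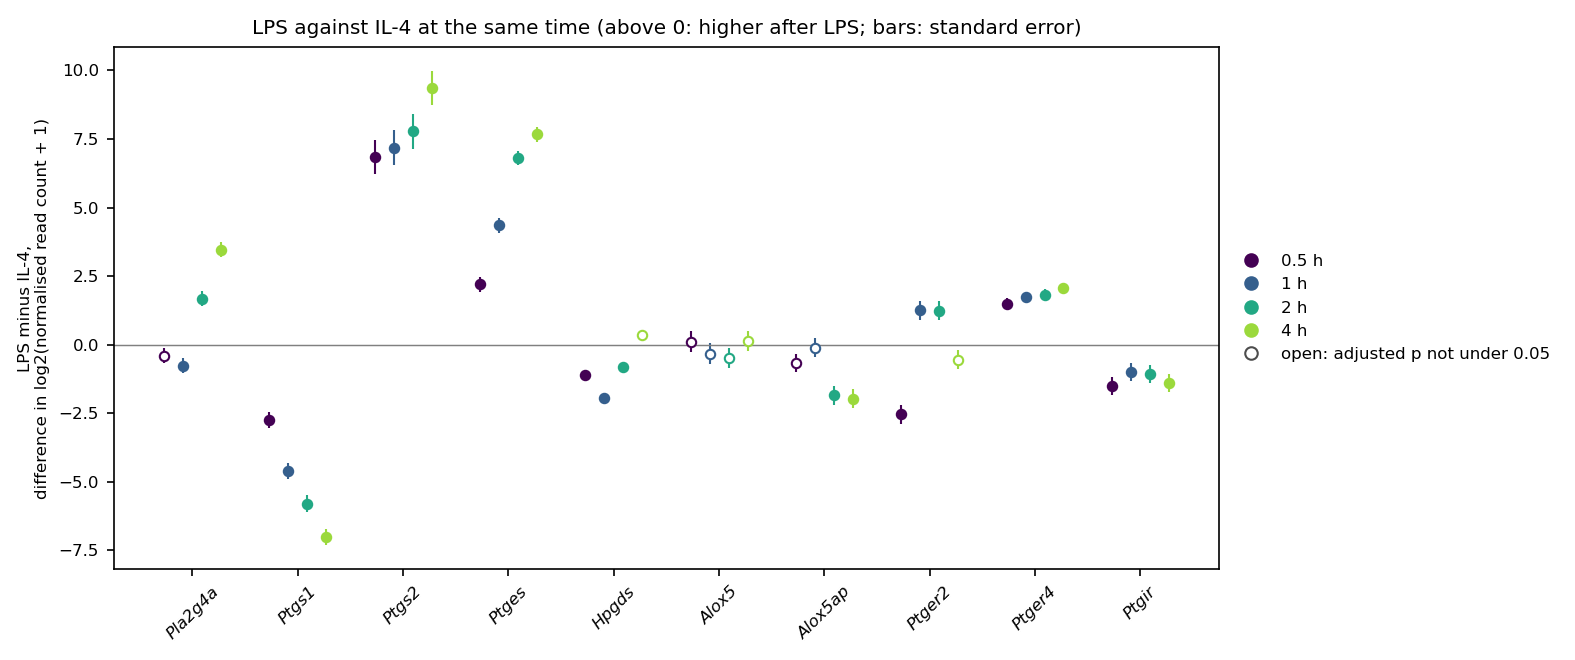
Difference of LPS from IL-4 at the same time in log2(normalised read count + 1) for each gene, where values above 0 are higher after LPS; bars are standard errors and open points did not pass an adjusted p of 0.05. At 4 h the differences run from −7.03 for Ptgs1 to 9.36 for Ptgs2, with Alox5 at 0.13.

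The other genes of the pathway were taken from a list of 71 genes, of which 35 passed the filter. Over LPS 34 of the 35 changed in the F test, with 14 rising and 20 falling at the time of largest change, against 87.6% of tested genes, of which 4577 rose and 7597 fell. Over IL-4 19 changed, with 6 rising and 13 falling, against 40.3%, of which 2696 rose and 2910 fell. The median of the largest change was 2.45 after LPS and 0.84 after IL-4, compared with 1.73 and 0.57 over all tested genes. Since the list was chosen with earlier results of these data known, these counts and medians are a description only. The IL-4 count was 8 without replicate 2, 9 without replicate 3 and 24 with the replicate block. The share of all tested genes called in those fits is not given.

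Of 12 phospholipase A2 genes, 11 changed over LPS (5 rose, 6 fell), against 87.6% of tested genes. Over IL-4 5 changed (2 rose, 3 fell), against 40.3%. Pla2g15, a lysosomal phospholipase, had 209, 204 and 221 normalised read counts in untreated cells, 11, 11 and 20 at 2 h of LPS and 576, 555 and 430 at 1 h of IL-4. It thus fell by 3.88 ± 0.26 on the log2 scale (adjusted p = 3.02e-09) after LPS and rose by 1.28 after IL-4 (1.95e-05). Plaat3, a phospholipase active at organelle membranes, was called lower than untreated at 0.5 h of LPS. It then rose, from 15, 11 and 19 in untreated cells to 409, 313 and 274 at 4 h of LPS (4.39 ± 0.31, adjusted p = 5.47e-09). Pnpla7, a lysophospholipase, fell from 1736, 1526 and 1471 to 32, 33 and 30 at 4 h (−5.59 ± 0.20, 2.3e-12).

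Of 3 other synthase genes, 3 changed over LPS (1 rose, 2 fell), against 87.6% of tested genes. Over IL-4 2 changed (1 rose, 1 fell), against 40.3%. Tbxas1, the thromboxane synthase, had 3351, 2218 and 2413 normalised read counts in untreated cells and 9660, 7681 and 7615 at 2 h of IL-4, a rise of 1.66 ± 0.20 (adjusted p = 3.59e-05). It fell to 465, 431 and 545 at 2 h of LPS (−2.45, 8.08e-08). Of 5 genes of prostaglandin breakdown and transport, 5 changed over LPS (1 rose, 4 fell) and 2 over IL-4 (1 rose, 1 fell), against the same shares. Hpgd, the dehydrogenase that inactivates prostaglandins, fell from 388, 403 and 447 to 5, 1 and 4 at 2 h of LPS (−6.72 ± 0.38, adjusted p = 4.56e-10). Ptgr2, a prostaglandin reductase, fell from 121, 121 and 126 to 6, 10 and 7 at 1 h (−3.86, 1.63e-08). The 1 tested gene of the other prostanoid receptors was called higher at 0.5 h of LPS and lower at 1, 2 and 4 h. It did not pass over IL-4.

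Of 10 leukotriene and lipoxygenase enzyme genes, 10 changed over LPS (4 rose, 6 fell), against 87.6% of tested genes. Over IL-4 7 changed (1 rose, 6 fell), against 40.3%. Ggt5, which converts leukotriene C4 to D4, had 108, 67 and 85 normalised read counts in untreated cells, 5, 4 and 3 at 4 h of LPS and 367, 348 and 327 at 2 h of IL-4. The changes were −4.12 (adjusted p = 5.44e-08) and 2.02 (5.3e-07), on opposite sides of untreated like those of Ptgs1. Dpep2, a dipeptidase of the D4 to E4 step, fell from 126, 134 and 188 to 44, 59 and 66 at 2 h of IL-4 (−1.39, adjusted p = 0.000376) and rose to 309, 399 and 452 at 1 h of LPS (1.37, 0.0012). After LPS, Mgst1, a microsomal glutathione transferase, fell from 78, 71 and 87 to 12, 5 and 9 at 0.5 h (−3.11, adjusted p = 1.03e-05). Cotl1, whose product binds actin and 5-lipoxygenase, fell from 491, 473 and 508 to 34, 42 and 37 at 2 h (−3.67, 1.12e-11).

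Of 4 lipid mediator receptor genes, 4 changed over LPS (3 rose, 1 fell), against 87.6% of tested genes. Over IL-4 3 changed (1 rose, 2 fell), against 40.3%. Fpr2, a formyl peptide and lipoxin receptor, rose from 0, 0 and 1 to 840, 1054 and 1178 at 4 h of LPS, at least 341-fold (adjusted p = 5.84e-13). Cysltr1, a cysteinyl leukotriene receptor, had 179, 197 and 188 normalised read counts in untreated cells, 20, 42 and 37 at 1 h of LPS (−2.54, adjusted p = 1.31e-05) and 64, 80 and 90 at 4 h of IL-4 (−1.27, 0.00288). After LPS it was called lower at 0.5 and 1 h but not at 2 or 4 h. After IL-4 it was called higher at 0.5 h before the fall at 4 h. Without replicate 2 the call of Cysltr1 at 4 h of IL-4 was lost (0.0831), and a gene on the other strand, Gm5127, covers 75.4% of Cysltr1. Ptafr, the receptor of platelet-activating factor, fell from 219, 167 and 177 to 63, 48 and 46 at 2 h of IL-4 (−1.83, adjusted p = 0.000903), a call lost without replicate 3 (0.0567). It rose to 949, 865 and 777 at 1 h of LPS (2.20, 1.65e-09). The LPS values of Tbxas1, Dpep2 and Ptafr were added after they had been seen.

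**Figure D5:**
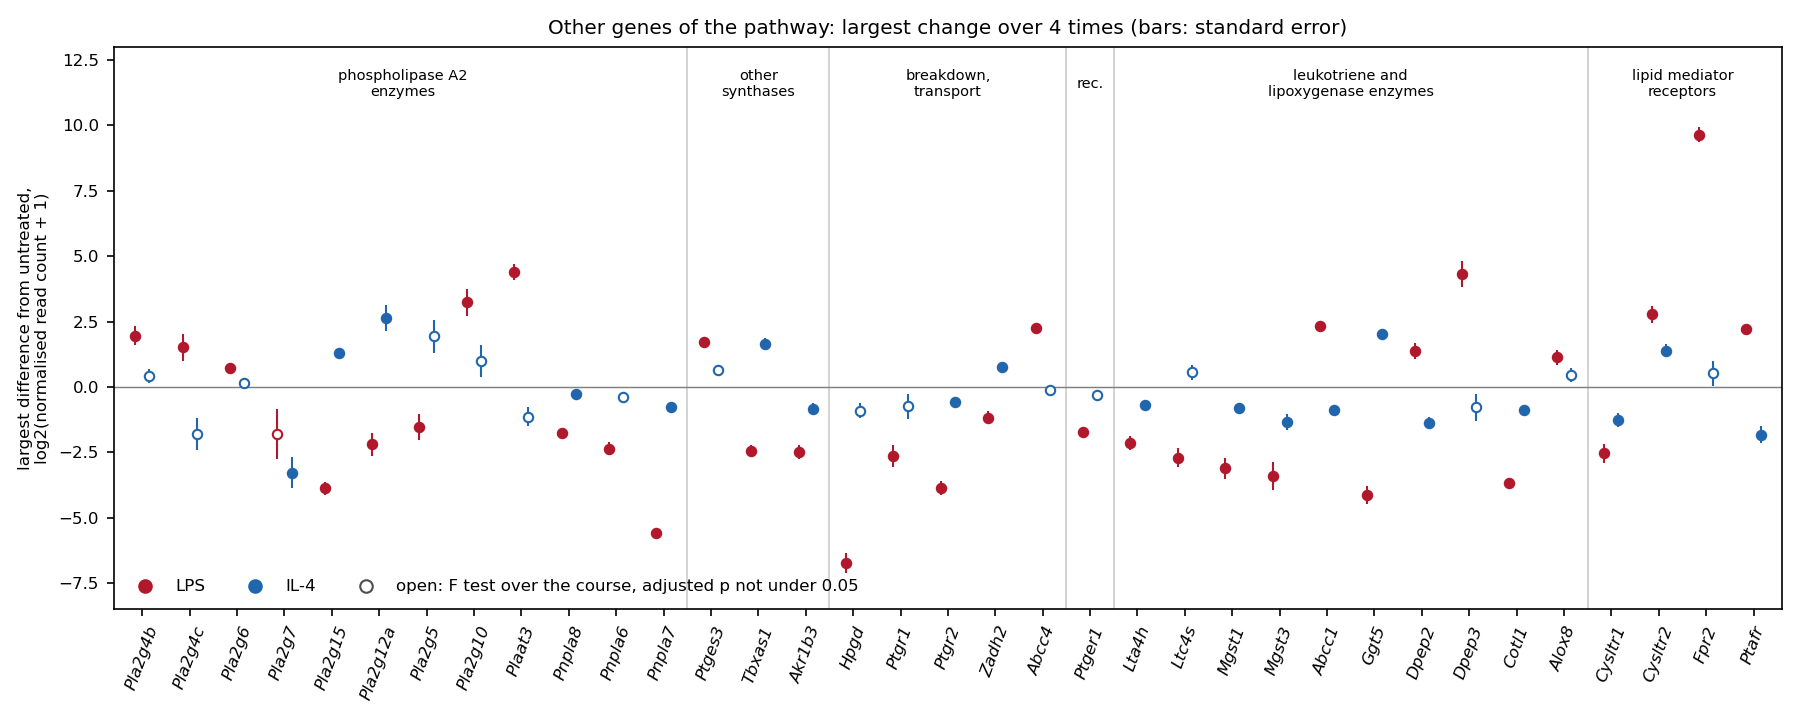
Largest difference from untreated over the 4 times in log2(normalised read count + 1) for the 35 tested other genes of the pathway, after LPS (red) and IL-4 (blue), with the standard error as bars and open points where the F test over the course did not pass. Over LPS 14 rose and 20 fell, from Hpgd at −6.72 up to Fpr2, and over IL-4 6 rose and 13 fell.

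The protein-coding genes most like each of the pathway genes were named by Pearson's r of log2(value + 1) over the 27 samples, among 7568 genes, as a description only, since the samples share groups and libraries. The closest was Traf1 for Ptgs2 (r = 0.98), Fpr2 for Ptges (0.99), Ggt5 for Ptgs1 (0.97), Zfp263 for Ptger4 (0.97), Il23r for Pla2g4a (0.94), Cnot2 for Alox5ap (0.91), Mknk1 for Hpgds (0.88) and Nrg4 for Ptger2 (0.83). The next were Acod1 and Sod2 for Ptgs2, both at 0.98, and Ern1 and Slc17a5 for Ptgs1, both at 0.97. Alox5 and Ptgir, which reached a mean of 50 in no group, were not searched.

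Markers of other cells that could be present were also summed. The sum of 6 stromal and endothelial markers was 48 to 93 normalised read counts in untreated samples, 35 to 228 after LPS and 60 to 310 after IL-4, with Col1a1 and Col1a2 at a mean of at least 10 in each. The collagen genes were highest in replicate 1, with Col1a1 at 35 to 95 there and 8 to 28 in replicates 2 and 3, while Pecam1, an endothelial gene that leukocytes also express, had 5, 7 and 9 in untreated cells and 90, 149 and 147 at 4 h of IL-4. That of 8 neutrophil markers was 11 to 21, 16 to 107 and 13 to 53, with Ly6g at 0 in every sample and Ltf at 7 to 60 in replicate 1 and 1 to 10 in replicates 2 and 3. That of 5 dendritic cell markers was 11 to 20, 17 to 99 and 13 to 31, with Xcr1 at 0 in every sample. The part of these cells in the changes above was not tested. Sums over 5 B cell markers were at most 8, over 4 eosinophil markers at most 2, and over 6 T and NK cell markers at most 3 in untreated and IL-4 samples. The last reached 36 after LPS through Lck, a kinase gene, with 13, 31 and 30 at 2 h, while Cd3e and Cd3g were at 0 in every sample.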

How the data were processed

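The authors extracted RNA from chromatin, prepared libraries by a Smart-seq2 protocol with random primers and sequenced them single-end. Per the labels and the study's methods, reads were aligned to mm10 with TopHat2 2.1.1, multi-hit and blacklisted reads were removed (bedtools 2.29.2), and reads were counted per RefSeq gene (GRCm38.p6). The deposited values were scaled by the authors on invariant genes and rounded, so they are a score ("normalised read counts") and not raw counts. Whether strand was used in counting is not given in the sources used here. These values do not give the read depth of a sample, which was not estimated here, and errors rest on the spread of the replicates. A test for raw counts had been planned and was not used.

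Values were compared as log2(value + 1), which understates the change of low genes, using limma 3.58.1 under R 4.3.3 (eBayes with an intensity trend, adjustment by Benjamini-Hochberg over the 13901 tested genes, threshold 0.05). Tested genes held 99.6% of all values. Each course was fitted on 15 samples, with an F test over the 4 times and a contrast for each time. LPS and IL-4 were compared in a fit of all 27. The study's impulse model was not run. Folds against a group with no library over 3 are bounds computed against 3. Samples were grouped by the labels. Deviations from the group mean were correlated between samples of the same replicate number in 12 pairs of groups. These were untreated with each stimulated group and LPS with IL-4 at each time (36 correlations, r = 0.19 to 0.80 over 6827 genes). Because replicate 1 stood apart, replicates 2 and 3 share the opposite deviation whatever their number. Samples of different numbers were not compared, so the values do not show that the numbers 2 and 3 pair samples. A fit with the number as a block was made as an alternative. Other alternatives were 2 scalings, a pseudocount of 8, no filter, a mean of at least 50, each replicate left out, replicates 2 and 3 averaged, and other samples in the fit. The fits were also run on simulated data with few changed genes and with noise drawn separately for each sample. Those data lack the broad LPS change and a replicate that stands apart, so the run does not check the fits for either.

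The genes and lists were chosen with earlier results of these data known. All 10 genes are given. Of the 71 others, up to 10 a course were named by size, where the F test passed, the largest change was at least 1 (log2) in size and the higher group had a mean of at least 50. Promoter windows and motifs come from RefSeq. Python 3.11.15, pandas 2.3.3 and matplotlib 3.10.9 were used.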

Additional observations from a re-analysis of the deposited data

Results flagged for a closer look

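For the genes below, the difference from untreated at 4 h differed from that at 0.5 h within the same course (limma, adjusted over all tested genes). Both times are set against the same untreated samples, so the difference is that of the 4 h and 0.5 h samples. No sample was flagged as standing far from its group, since groups of 3 are not tested for that.

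After LPS the difference between the times was 3.33 (log2) for Pla2g4a (from −0.01 to 3.31, adjusted p = 6.1e-08), 5.27 for Ptges (from 2.59 to 7.86, 2.25e-11) and 2.51 for Ptgs2 (from 7.24 to 9.75, 9.41e-06). Ptgs1 moved further down by −2.88 (from −1.39 to −4.27, adjusted p = 3.31e-06) and Hpgds by −0.75 (from −0.67 to −1.41, 0.00281), whereas the rise of Ptger4 shrank by −0.70 (from 2.52 to 1.82, 0.00204).

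After IL-4 the difference was 1.40 for Ptgs1 (from 1.36 to 2.76, adjusted p = 0.00114) and 0.69 for Alox5ap, whose fall became smaller (from −1.62 to −0.93, 0.028). Hpgds went from above to below untreated, a difference of −2.20 (from 0.46 to −1.75, adjusted p = 2.11e-08). Ptger2 did so with −2.54 (from 1.75 to −0.79, 2.99e-05), although its value at 4 h did not pass the test on its own, and Ptger4 changed by −1.28 (from 1.04 to −0.24, 0.000496). The difference of Ptgs1 missed the threshold without replicate 2 (adjusted p = 0.0665), and that of Alox5ap without replicate 2 (0.158) or 3 (0.165).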

How the results depend on the processing

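Of 149 differences of the 10 genes (each against untreated, each between the stimuli, and those between times that passed), 58 changed their side of the threshold or their sign under some alternative. Of 1615 alternative values, 1471 kept both, 95 no longer passed, 28 newly passed and 21 changed sign, none of which passed in either fit. Values lost were most frequent without replicate 2 (29), without replicate 3 (20) and with replicates 2 and 3 averaged (19), whereas without replicate 1 1 value was lost and 10 were gained. The count of the 10 genes called over IL-4 was 9 and ranged from 5 to 9 when a replicate was left out. That of the other genes of the pathway was 34 over LPS and 22 with a mean of at least 50, since 22 were then tested. Over IL-4 it was 19, 10 with replicates 2 and 3 averaged, and 8 to 20 when a replicate was left out. With the replicate block the counts were 10 over LPS, 9 over IL-4 and 8 between the stimuli at 4 h, and 35 and 24 of the other genes. Shares of all tested genes called in the alternative fits are not given, so changes in these counts are not read as particular to the pathway. Beside those named above, the block changed no call in a difference from untreated or between the stimuli. Of 16 differences of the named other genes, the alternatives gave 176 values, of which 3 no longer passed.

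Changed signs were, for Pla2g4a, 0.24 at 0.5 h and 0.12 at 1 h of LPS with median-of-ratios scaling, and 0.048 at 4 h of IL-4 with replicates 2 and 3 averaged. For Ptgs2 at 2 h of IL-4 they were 0.059 with a pseudocount of 8 and 0.40 with replicates averaged. With equal totals Hpgds read −0.035 at 1 h of IL-4 and −0.29 for LPS minus IL-4 at 4 h, and Alox5 −0.26 and −0.43 for LPS minus IL-4 at 0.5 and 4 h. Alox5ap read 0.17 for LPS minus IL-4 at 1 h with median-of-ratios scaling. Leaving out a replicate gave ranges of −0.062 to 0.077 (Pla2g4a, 0.5 h of LPS), −0.53 to 0.088 (Pla2g4a, 4 h of IL-4), −0.095 to 0.22 (Hpgds, 1 h of IL-4) and −0.035 to 0.42 (Ptger2, 2 h of IL-4). For Ptgs2 under IL-4 the range was −0.21 to 1.08 at both 0.5 and 4 h, −0.50 to 0.66 at 1 h, and −1.0 to 0.90 (2 h). For LPS minus IL-4 they were −0.15 to 0.24 (Alox5, 0.5 h), −0.058 to 0.26 (Alox5, 4 h) and −0.30 to 0.018 (Alox5ap, 1 h). The cause of these changes was not tested. Values under about 10 normalised read counts, as for Ptgs2 and Ptges without LPS and for Alox5 and Ptgir, are limited by rounding and by an unknown read depth.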
